A study of Homo sapiens with 9 samples.

Results

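Expression of 10 receptor tyrosine kinase (RTK) genes was examined in SKOV3 cells, an ovarian cancer cell line. The genes were ALK, its closest relative LTK, the epidermal growth factor receptor family members EGFR, ERBB2 and ERBB3, the hepatocyte growth factor receptor MET and its relative MST1R, the insulin-like growth factor and insulin receptors IGF1R and INSR, and the collagen receptor DDR1. They were found by symbol, each at 1 of the 58735 genes of the deposited table. RNA was sequenced from 3 groups of 3 libraries each. The first group expressed WT CDK9 under basal conditions, the second expressed WT CDK9 and was treated with an ALK inhibitor for 24 h, and the third expressed Tyr19Phe CDK9 (labelled Y19F), in which tyrosine 19 of the kinase cannot be phosphorylated. All cells were grown in the same serum-supplemented medium. The sources used here name no dose, no inhibitor and no vehicle for this experiment. Elsewhere in the study such lines were made by stable re-expression in CDK9-depleted cells, and whether each is 1 clone is not given.

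RTKs are membrane proteins that bind a growth factor or matrix ligand outside the cell, pair with another receptor and phosphorylate tyrosines on their inner tails. Adaptor proteins such as GRB2 and the IRS proteins dock on these tyrosines and pass the signal to the MAPK and PI3K pathways, while ubiquitin ligases such as CBL and phosphatases such as PTPN1 end it. ALK is used mainly in the developing nervous system. CDK9 is the kinase of P-TEFb, which releases paused RNA polymerase II, and the study places it downstream of ALK. SKOV3 is known for amplification of the part of chromosome 17 that holds ERBB2, and copy number was not measured here.

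Values are given as CPM, the reads counted on a gene per 1000000 reads of its library after TMM scaling, or, to compare genes with each other, as CPM per kilobase of listed gene length (RPKM). A gene was called when its adjusted p was under 0.05 in edgeR's quasi-likelihood test over the 16350 genes that passed a filter on low counts. Libraries held between 18169050 and 29320184 counts, and those of Tyr19Phe CDK9 cells, from 26485891 counts up, were the deepest. ALK inhibitor replicate 2 had 19944 genes with a count and Tyr19Phe replicate 3 had 20635, fewer than the 21241 to 22744 of the other libraries, so results that turn on them are also given without them. Of 5 epithelial marker genes, all expressed, KRT7 lay between 1219 and 1683 CPM, KRT8 between 1260 and 1726 CPM and KRT18 between 129.4 and 184 CPM over the libraries. KRT19 had 229.6 to 264 CPM in WT CDK9 cells, 266.4 to 305.3 CPM with the inhibitor and 99.9 to 111.7 CPM in Tyr19Phe CDK9 cells, and EPCAM had 20.27 to 23.04, 18.7 to 22.84 and 9.716 to 13.47 CPM. EdgeR called KRT19 and EPCAM lower (log2 fold changes -1.24 and -0.82) and KRT8 and KRT18 higher (0.38 and 0.39) in Tyr19Phe CDK9 cells, and with the inhibitor it called KRT7 lower (-0.35) and KRT19 higher (0.21). Their part in the receptor results was not tested. Of the ovarian lineage genes, PAX8 lay between 257.5 and 281.4 CPM and was not called, and WT1 was scarce at 0.359 to 2.78 CPM. The blood cell and the endothelial markers each summed to at most 0.641 CPM, whereas the ovarian cancer antigen gene MUC16 had 0 to 9 counts.

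ALK RNA was at the limit of detection in all groups. Protein was not measured in these libraries, and the study reports a binding signal of phosphorylated ALK with CDK9 in SKOV3 cells. ALK (ENSG00000171094, chr2:29192774-29921566, minus strand, hg38) had 0, 0 and 5 counts in WT CDK9 cells, 2, 3 and 0 counts with the ALK inhibitor, and 5, 5 and 5 counts in Tyr19Phe CDK9 cells. LTK, which shares its ligands with ALK, had 2, 3 and 0, then 1, 3 and 1, then 4, 6 and 0 counts. A count of 0 allows up to 3 counts, which was between 0.102 and 0.165 CPM in these libraries, and this floor covers counting error only. Neither gene passed the filter. The Tyr19Phe CDK9 libraries did not overlap those of the inhibitor in CPM of ALK. The closest libraries were at 0.169 and 0.165 CPM, or 5 and 3 counts. Groups did not overlap in 34.4% of tested genes, a share over genes that passed the filter, which ALK did not. For this comparison the two-sided exact permutation test gave p = 0.1, the smallest that 3 against 3 libraries allow. Against WT CDK9 cells the same exact permutation test gave p = 1.0 for the inhibitor and p = 0.4 for Tyr19Phe CDK9. For LTK, the exact permutation p ranged from 0.8 to 1.0. With the filter removed, edgeR gave ALK an adjusted p of 1.0, 0.85 and 0.823 in the inhibitor, Tyr19Phe and direct comparisons, so a difference in ALK RNA was not detectable at this depth. The ligand genes of both receptors were also scarce, with at most 2 counts of ALKAL1 and 5 counts of ALKAL2 in any library. The other receptor genes ranged from traces to among the most abundant genes of these cells.

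**Figure D1:**
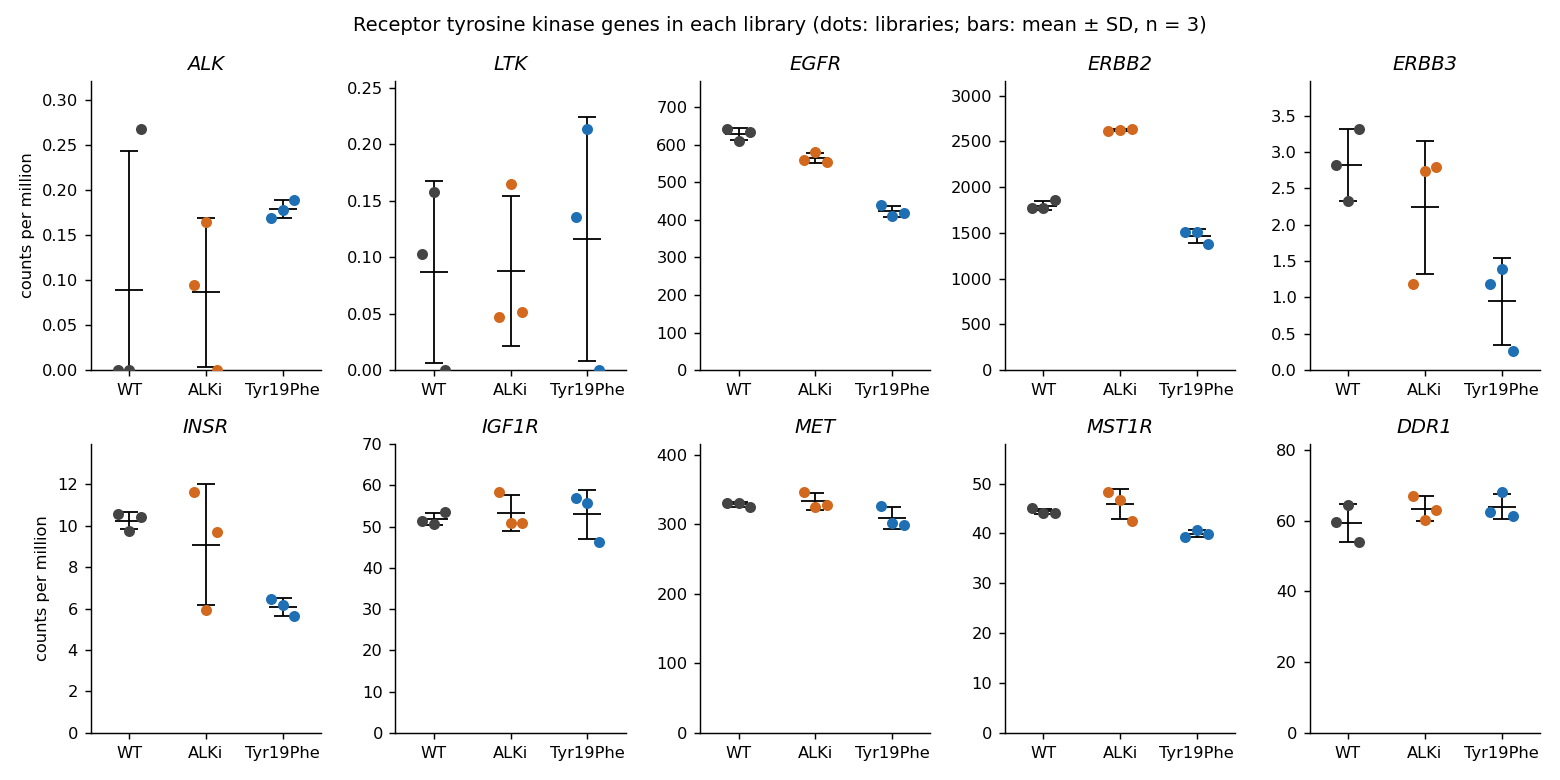
CPM of the 10 receptor genes in every library of WT CDK9 cells (WT), ALK inhibitor-treated WT CDK9 cells (ALKi) and Tyr19Phe CDK9 cells. Dots are libraries, bars are mean ± SD of 3, and each panel has its own linear axis from 0. The 3 inhibitor libraries lie highest for ERBB2, at 2617 to 2634 CPM, and the 3 Tyr19Phe libraries lie lowest for EGFR, at 411 to 440 CPM.

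Compared per length, ERBB2 stood first of the 10 genes in all 3 groups, at 174 ± 4.89 RPKM in WT CDK9 cells, 254 ± 0.837 RPKM with the inhibitor and 142 ± 7.51 RPKM in Tyr19Phe CDK9 cells (mean ± SD, n = 3). Its mean over the 9 libraries, 190 RPKM, was higher than that of 99.3% of the tested genes and of every other gene among 58 RTKs examined. AXL, the GAS6 receptor, and the ephrin receptor EPHA2 followed at means of 162 and 112 RPKM. By group, AXL stood at 177 ± 6.02 RPKM in WT CDK9 cells, where its libraries overlapped those of ERBB2, at 146 ± 6.73 RPKM with the inhibitor, below ERBB2 in every library, and at 164 ± 5.37 RPKM in Tyr19Phe CDK9 cells, above ERBB2 in every library. EGFR and MET came next among the 10 genes and changed places between groups. In WT CDK9 cells EGFR (50.2 ± 1.29 RPKM) lay above MET (46.7 ± 0.482 RPKM) in every library, with the inhibitor their libraries overlapped, and in Tyr19Phe CDK9 cells EGFR (33.8 ± 1.21 RPKM) lay below MET (43.9 ± 2.19 RPKM) in every library. MST1R, DDR1, IGF1R, INSR and ERBB3 then followed in this order in all groups. In WT CDK9 cells their means were 8.45, 6.5, 3.72, 0.981 and 0.312 RPKM. Neighbours in this part of the order did not overlap between their libraries in any group. ERBB3 and LTK overlapped in Tyr19Phe CDK9 cells, and LTK and ALK overlapped in all groups. ERBB2 held 23.4 to 25% of the RPKM summed over the 58 RTKs in WT CDK9 libraries, 32.9 to 34.5% in inhibitor libraries and 20.7 to 22.2% in Tyr19Phe libraries, and these ranges did not overlap.

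**Figure D2:**
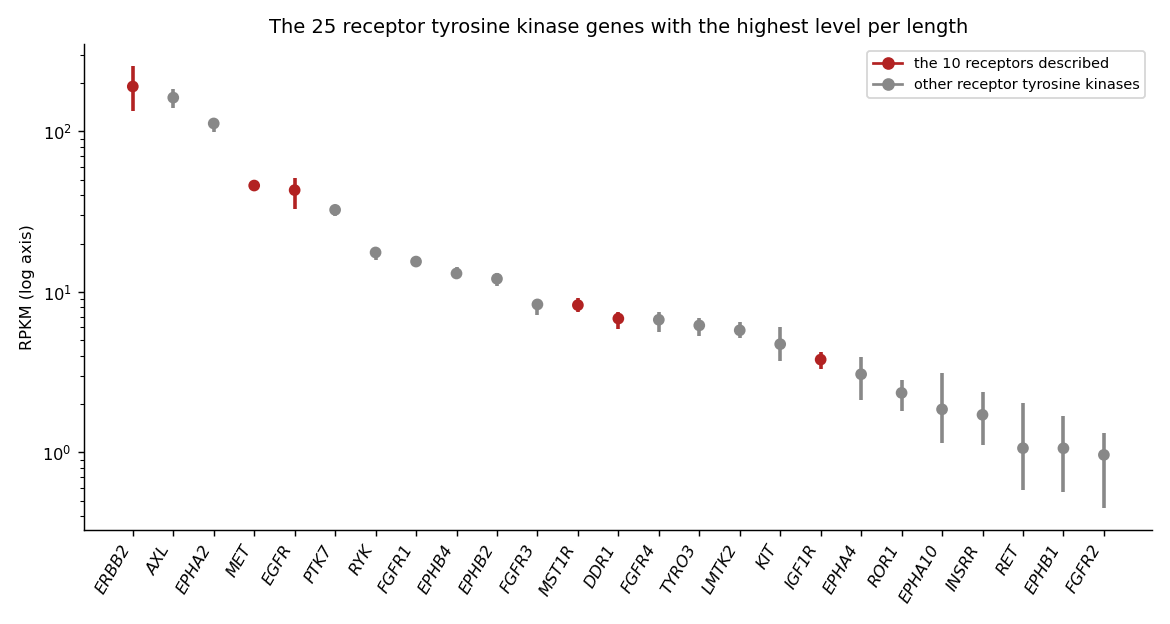
Level per length of the 25 highest of 58 RTK genes, in RPKM on a log axis. Points are means over the 9 libraries, lines run from the lowest to the highest library, and the 10 genes described are in red. ERBB2 is first at a mean of 190 RPKM, and its libraries range from 134 to 255 RPKM.

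Of the 8 receptor genes that passed the filter, the ALK inhibitor raised ERBB2 and lowered EGFR, and no other receptor was called. Across all tested genes, 1.82% were called higher and 2.73% lower in this comparison. In Tyr19Phe CDK9 cells, ERBB2, EGFR, INSR and ERBB3 were called lower and 0 higher by edgeR, where 10.4% of all tested genes were called lower and 7.61% higher. These comparisons share the WT CDK9 libraries. The receptors were chosen with earlier results of these data known, so their counts beside these shares are a description and no test. In the direct comparison, ERBB2, EGFR and INSR were called lower in Tyr19Phe CDK9 cells than with the inhibitor and 0 higher, beside 11.1% of all tested genes lower and 9.57% higher. At an unadjusted edgeR p under 0.05 the counts were 5 lower and 0 higher in Tyr19Phe CDK9 cells and 6 lower and 0 higher in the direct comparison, and DESeq2 called 4 lower and 0 higher in both. The median log2 fold change of the 8 genes was 0.03 with the inhibitor, -0.22 in Tyr19Phe CDK9 cells and -0.31 between them, and that of all tested genes lay within 0.0035 of 0 in each. CPM are shares of a library, so a loss of RNA of all genes alike would not be seen, and fewer cells with a transcript and less of it per cell cannot be told apart in bulk RNA.

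**Figure D3:**
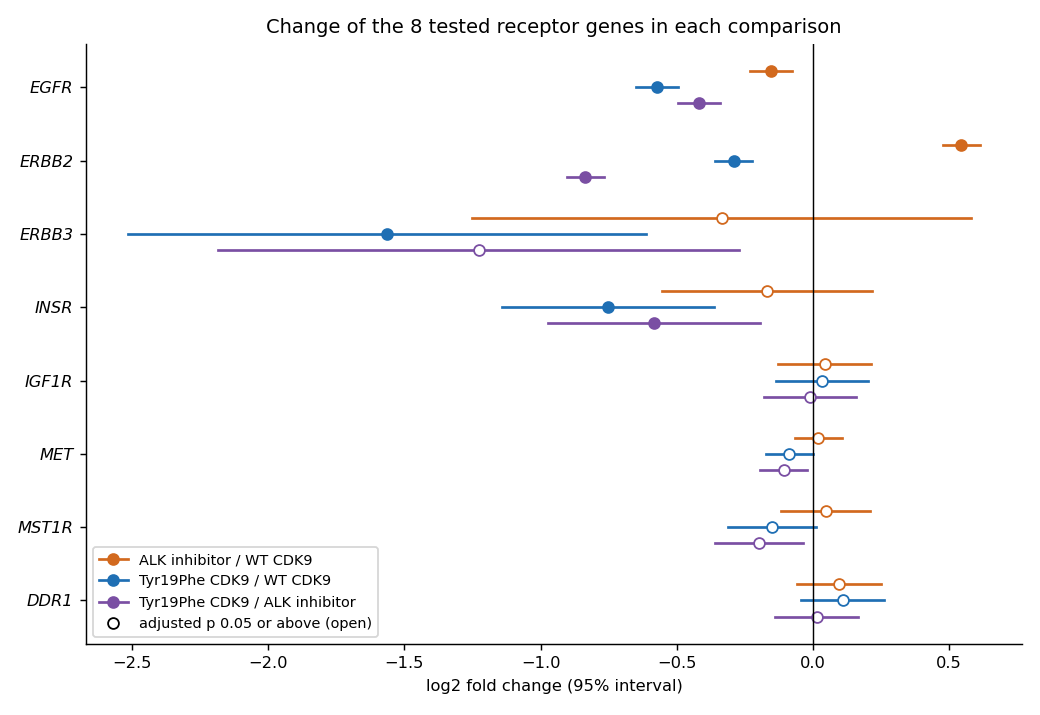
Log2 fold change of the 8 tested receptor genes in the 3 comparisons, with 95% intervals from the fit over all tested genes. Filled points have an adjusted p under 0.05. ERBB2 is the only one of the 8 with called changes in opposite directions, 0.54 with the inhibitor and -0.29 in Tyr19Phe CDK9 cells.

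The stretches upstream of the canonical transcript starts of ERBB2, EGFR and INSR are shown because these genes were called lower together in Tyr19Phe CDK9 cells, while the inhibitor raised ERBB2 and lowered EGFR. They were read from hg38, 250 bases before each start in GENCODE release 44, leaving out bases that any annotated exon covers, and run 5′ to 3′ on the gene's strand. Capitals mark GGGCGG (a GC box, bound by SP1-type factors) or CCGCCC, its opposite strand. INSR holds 4 GC boxes, of which the first 3 overlap in letters, and EGFR holds 2. The ERBB2 stretch holds none.
ERBB2 (chr17:39699814-39699975, plus strand): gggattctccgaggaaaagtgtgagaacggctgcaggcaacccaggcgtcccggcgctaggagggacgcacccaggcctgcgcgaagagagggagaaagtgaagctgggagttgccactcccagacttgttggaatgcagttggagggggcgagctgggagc
EGFR (chr7:55018767-55019016, plus strand): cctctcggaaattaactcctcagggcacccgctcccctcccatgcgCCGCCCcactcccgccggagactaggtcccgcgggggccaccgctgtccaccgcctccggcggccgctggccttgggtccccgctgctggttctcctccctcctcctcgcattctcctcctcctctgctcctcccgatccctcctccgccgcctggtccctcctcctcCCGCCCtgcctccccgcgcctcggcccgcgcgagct
INSR (chr19:7294415-7294664, minus strand): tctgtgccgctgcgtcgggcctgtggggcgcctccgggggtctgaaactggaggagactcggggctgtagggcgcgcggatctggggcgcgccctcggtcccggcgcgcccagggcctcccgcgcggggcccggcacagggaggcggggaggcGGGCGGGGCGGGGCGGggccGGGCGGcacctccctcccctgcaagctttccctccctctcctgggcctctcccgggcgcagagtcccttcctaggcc

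On either strand, 59.0% of 20044 protein-coding promoter windows of 250 bases held GGGCGG, and 71.9% of those of tested genes did. The letters were found in 7 of the 9 receptor windows searched and not in those of LTK and ERBB2. CCAAT was found in 34.3% of all windows and in those of ALK and ERBB2, where it lies 78 to 74 bases before the start in a stretch that another ERBB2 transcript includes and that is not printed. TATAAA (9.34% of all windows), TGACTCA, an AP-1 motif (3.07%), and GTAAACA, the core of FOXO sites (2.09%), were found in none of the 9. The ERBB2 window had a GC content of 58.8%, below the 63.2% median of all windows, and the other 8 receptor windows had 66.0 to 81.2%. RefSeq places the start of ERBB2 11970 bases and that of DDR1 3549 bases from the starts used here. In the 250 bases before those RefSeq starts neither gene held GGGCGG, so the count would be 6 of 9, and both held CCAAT. A match of letters in these windows is a description and no site of binding.

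ERBB2 (ENSG00000141736, chr17:39687914-39730426, plus strand), the ligandless partner of the other ERBB receptors, rose 1.46-fold with the inhibitor and fell by 18.3% in Tyr19Phe CDK9 cells. It stood at 1773, 1768 and 1858 CPM in WT CDK9 cells. With the inhibitor it stood at 2617, 2624 and 2634 CPM. In Tyr19Phe CDK9 cells it stood at 1515, 1515 and 1381 CPM. No library of one group overlapped another group, which was so for 19.6% of tested genes in the inhibitor comparison, 32.6% in the Tyr19Phe comparison and 34.4% in the direct comparison. The log2 fold change was 0.54 (SE 0.033, edgeR adjusted p = 2.96e-13) with the inhibitor and -0.29 (SE 0.033, edgeR adjusted p = 5.4e-08) in Tyr19Phe CDK9 cells. Between Tyr19Phe CDK9 and the inhibitor it was -0.84 (SE 0.033, edgeR adjusted p = 1.17e-18). ERBB2 overlaps MIEN1 by 1931 bases and PGAP3 by 8884 bases on the opposite strand, and the strand setting of the counting is not given in the sources used here. If strand was not used, reads of these genes in the shared stretches could not be told apart. MIEN1 had at most 5914 and PGAP3 at most 2212 counts in a library, and ERBB2 at least 33510.

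EGFR (ENSG00000146648, chr7:55019021-55211628, plus strand), which binds EGF, TGFA and related ligands, had 641, 611 and 635 CPM in WT CDK9 cells. It had 560, 581 and 555 CPM with the inhibitor and 440, 411 and 418 CPM in Tyr19Phe CDK9 cells. The inhibitor libraries all lay below those of WT CDK9 cells, and the Tyr19Phe libraries all lay below both. Groups did not overlap in 19.6% of all tested genes in the inhibitor comparison, 32.6% in the Tyr19Phe comparison and 34.4% in the direct comparison. EGFR fell by 10.1% with the inhibitor (log2 fold change -0.15, SE 0.038, edgeR adjusted p = 0.0109) and by 32.8% in Tyr19Phe CDK9 cells (log2 fold change -0.57, SE 0.038, edgeR adjusted p = 3.43e-13). Tyr19Phe CDK9 cells were also below the inhibitor group (log2 fold change -0.42, SE 0.038, edgeR adjusted p = 4.31e-10). The call with the inhibitor was lost when WT replicate 1, WT replicate 3, inhibitor replicate 1 or inhibitor replicate 3 was left out, with edgeR adjusted p between 0.055 and 0.101, while the log2 fold change stayed between -0.14 and -0.17 over every single library left out of those groups.

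ERBB3, a receptor with a weak kinase that signals through ERBB2, was scarce. WT CDK9 libraries had 55, 44 and 62 counts of it, inhibitor libraries 25, 50 and 54, and the deeper Tyr19Phe libraries 35, 39 and 7. In CPM the Tyr19Phe libraries, at 1.19, 1.39 and 0.264, lay below the WT CDK9 libraries, at 2.82, 2.32 and 3.31. These groups did not overlap in 32.6% of all tested genes either. The log2 fold change was -1.56 (SE 0.47, edgeR adjusted p = 0.0158). Without Tyr19Phe replicate 3, the library with fewer detected genes and 7 counts, it was -1.12 and was not called (edgeR adjusted p = 0.0806). Without WT replicate 3 it was -1.43 with an adjusted p of 0.0619. Against the inhibitor group, whose libraries overlapped the Tyr19Phe group, the log2 fold change was -1.23 and was not called (edgeR adjusted p = 0.0598). It was called without inhibitor replicate 1 (-1.54, edgeR adjusted p = 0.0244), without Tyr19Phe replicate 2 (-1.60, edgeR adjusted p = 0.0374) and without the filter (-1.22, edgeR adjusted p = 0.0472), and was -0.62 without both libraries that stood apart (edgeR adjusted p = 0.435). With the inhibitor the log2 fold change of ERBB3 was -0.34 (95% interval -1.25 to 0.58, edgeR adjusted p = 0.824), and -0.023 without inhibitor replicate 1.

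INSR, the insulin receptor (ENSG00000171105, chr19:7112255-7294034, minus strand), had 10.6, 9.76 and 10.4 CPM in WT CDK9 cells, 11.6, 5.93 and 9.71 CPM with the inhibitor and 6.47, 6.16 and 5.62 CPM in Tyr19Phe CDK9 cells. The Tyr19Phe libraries lay below all WT CDK9 libraries, and these groups did not overlap in 32.6% of all tested genes. The inhibitor libraries were spread over the range of both. INSR fell by 40.6% in Tyr19Phe CDK9 cells (log2 fold change -0.75, SE 0.19, edgeR adjusted p = 0.00444), and stayed called without any single library and without both libraries that stood apart. With the inhibitor the log2 fold change was -0.17 (95% interval -0.55 to 0.22, edgeR adjusted p = 0.772), and 0.062 without inhibitor replicate 2, its lowest library. In the direct comparison it was -0.58 (edgeR adjusted p = 0.0268). Without inhibitor replicate 2 this was -0.81 (edgeR adjusted p = 0.00121), and the call was lost without inhibitor replicate 1, inhibitor replicate 3, Tyr19Phe replicate 2 or Tyr19Phe replicate 3, at log2 fold changes of -0.36 to -0.59.

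The related IGF1R stood at 50.6 to 53.6 CPM in WT CDK9 cells, 50.8 to 58.4 CPM with the inhibitor and 46.2 to 57.0 CPM in Tyr19Phe CDK9 cells. These ranges overlapped, and no comparison was called. The log2 fold change of IGF1R was 0.043 (95% interval -0.13 to 0.21) with the inhibitor and 0.032 (95% interval -0.14 to 0.20) in Tyr19Phe CDK9 cells, with edgeR adjusted p of 0.89 and 0.855. INSR was called in Tyr19Phe CDK9 cells and IGF1R was not, but the difference between the changes of these genes was not tested.

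MET, MST1R and DDR1 were not called in any comparison. MET had 325 to 331 CPM in WT CDK9 cells, 325 to 347 CPM with the inhibitor and 298 to 327 CPM in Tyr19Phe CDK9 cells. The log2 fold change of MET was 0.019 (95% interval -0.068 to 0.11, edgeR adjusted p = 0.907) with the inhibitor, -0.088 (95% interval -0.17 to -0.0013, edgeR adjusted p = 0.165) in Tyr19Phe CDK9 cells and -0.11 (95% interval -0.19 to -0.021, edgeR adjusted p = 0.0726) between them. Without Tyr19Phe replicate 1, the highest of its group, MET was called lower than in WT CDK9 cells (log2 fold change -0.13, edgeR adjusted p = 0.0478) and than with the inhibitor (-0.15, edgeR adjusted p = 0.0163). MST1R had 39.3 to 40.8 CPM in Tyr19Phe CDK9 cells, below the 44 to 45.1 CPM of WT CDK9 cells and the 42.6 to 48.3 CPM of the inhibitor group. The log2 fold changes of MST1R were -0.15 (95% interval -0.31 to 0.010, edgeR adjusted p = 0.207) and -0.20 (95% interval -0.36 to -0.037, edgeR adjusted p = 0.0751). Its Tyr19Phe libraries overlapped neither group, as was so for 32.6% and 34.4% of all tested genes. With the inhibitor the log2 fold change of MST1R was 0.047 (95% interval -0.12 to 0.21, edgeR adjusted p = 0.871). DDR1 had log2 fold changes of 0.096 (95% interval -0.059 to 0.25, edgeR adjusted p = 0.635) with the inhibitor and 0.11 (95% interval -0.043 to 0.26, edgeR adjusted p = 0.365) in Tyr19Phe CDK9 cells, at 53.9 to 68.1 CPM over the 9 libraries.

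Gene-level counts of CDK9 itself do not separate an introduced from an endogenous copy or WT from Tyr19Phe. CDK9 stood at 47.6 to 49.7 CPM in WT CDK9 cells, 43.8 to 47.3 CPM with the inhibitor and 52.4 to 59.5 CPM in Tyr19Phe CDK9 cells. The Tyr19Phe libraries lay above the others, beside 32.6% and 34.4% of all tested genes whose groups did not overlap. CDK9 was called higher than in the inhibitor group (log2 fold change 0.27, edgeR adjusted p = 0.00961) and was not called against WT CDK9 cells, at 0.18 in Tyr19Phe CDK9 cells (edgeR adjusted p = 0.106) and -0.092 with the inhibitor (edgeR adjusted p = 0.665).

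Genes that lie beside a receptor were used to see whether its change was shared along the chromosome. The median log2 fold change in Tyr19Phe CDK9 cells of the other tested genes within 5 Mb on each side was -0.0042 beside ERBB2 (192 genes), 0.054 beside EGFR (17 genes), 0.041 beside INSR (230 genes) and 0.024 beside ERBB3 (145 genes). Their receptors changed by -0.29, -0.57, -0.75 and -1.56. Over all tested genes 10.4% were called lower and 7.61% higher. Beside ERBB2 21 genes were lower (10.9%) and 13 higher (6.77%), beside EGFR 0 and 1 by edgeR, beside INSR 22 and 20 (9.57% and 8.7%), and beside ERBB3 13 and 13 (8.97% each). Within 2 Mb of ERBB2 12 of 62 genes were lower (19.4%) and 1 higher (1.61%), with a median of -0.046. Beside DDR1, 5 of 215 genes were lower (2.33%) and 36 higher (16.7%), with a median of 0.13, and DDR1 itself had 0.11. With the inhibitor the median beside ERBB2 was -0.018, whereas ERBB2 changed by 0.54.

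Several genes next to ERBB2 were called in the same direction as ERBB2. This was seen in the values first, and the 6 tested genes whose midpoint lies within 100 kb of that of ERBB2 were then taken. As this limit was set after the values were seen, counts inside and outside it are a description and no test. With the inhibitor, 4 of the 6 were called higher together with ERBB2, where 1.82% of all tested genes were called higher. PPP1R1B, which encodes a phosphatase inhibitor, had 44.8 to 53.8 CPM in WT CDK9 cells and 99.3 to 102 CPM with the inhibitor (log2 fold change 1.03, edgeR adjusted p = 1.82e-11). MIEN1 rose by 0.55 (edgeR adjusted p = 2.96e-08), the cholesterol transporter gene STARD3 by 0.34 (edgeR adjusted p = 7.89e-06) and PGAP3, an enzyme of GPI anchors, by 0.24 (edgeR adjusted p = 0.0369). The call of PGAP3 was lost without WT replicate 1, WT replicate 3, inhibitor replicate 2 or inhibitor replicate 3, with edgeR adjusted p between 0.0606 and 0.241. It was also lost without both libraries that stood apart (edgeR adjusted p = 0.181). TCAP and GRB7 were not called and had log2 fold changes of -0.20 and -0.14. Of the 14 tested genes between 100 and 500 kb from ERBB2, edgeR and DESeq2 called 0 with the inhibitor, 1 was higher at an unadjusted edgeR p under 0.05, and their median was -0.025. In Tyr19Phe CDK9 cells MIEN1 (-0.44, edgeR adjusted p = 5.92e-07), PGAP3 (-0.33, edgeR adjusted p = 0.000811) and GRB7 (-0.75, edgeR adjusted p = 0.0115) were called lower, of which GRB7 was not called without WT replicate 2 or Tyr19Phe replicate 3 (edgeR adjusted p = 0.0951 and 0.0653). PPP1R1B (-0.15) and STARD3 (0.097) were not called. Of the 14 flanking genes 2 were lower and 1 higher, beside 10.4% and 7.61% of all tested genes. MIEN1 and PGAP3 are the genes that overlap ERBB2, and the part of shared reads in their values was not tested. PPP1R1B and STARD3 do not overlap ERBB2.

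**Figure D4:**
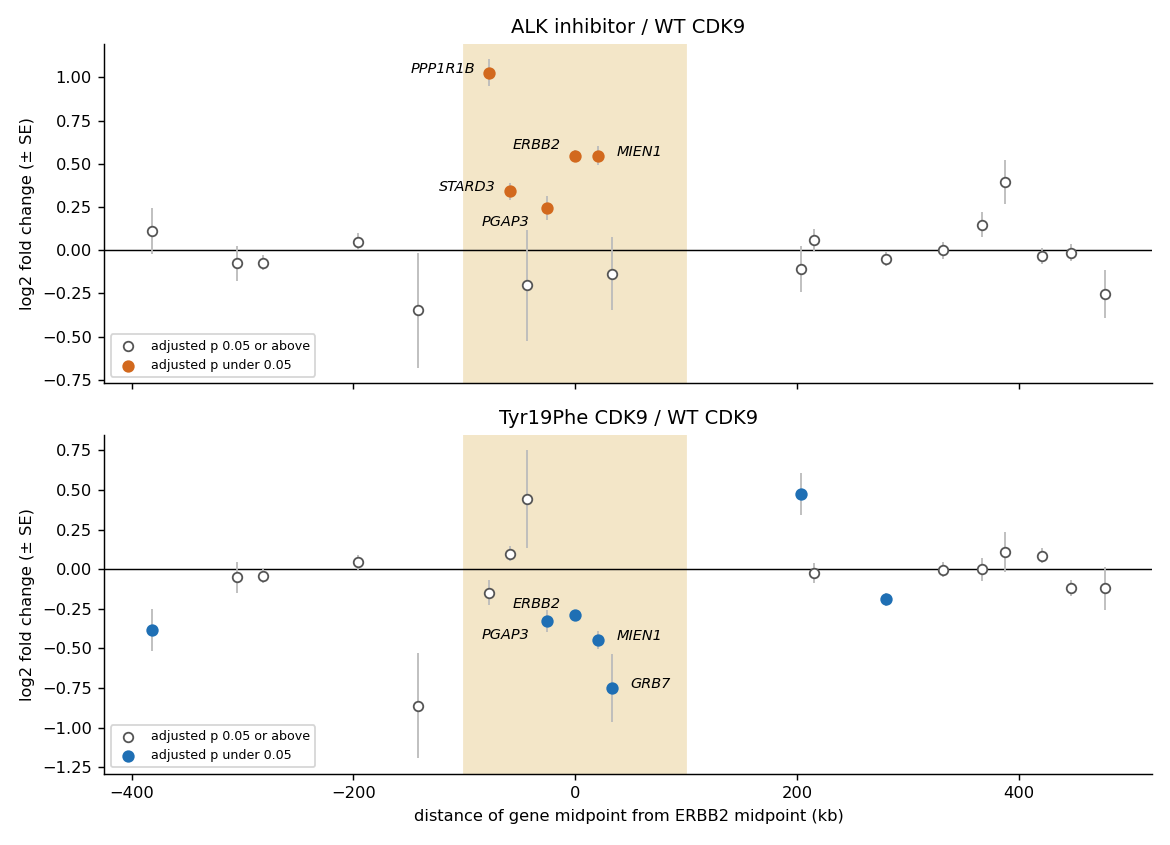
Log2 fold change (± SE) of the 21 tested genes within 500 kb of ERBB2 against the distance of their midpoint from that of ERBB2, in kb, for the inhibitor above and Tyr19Phe CDK9 below. The band marks 100 kb on each side, and filled points have an adjusted p under 0.05. With the inhibitor, the called genes are ERBB2 and 4 genes inside the band, all higher.

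Pearson correlations of log2 CPM over the 9 libraries were computed for the 14040 genes averaging 1 CPM or more. The genes most like ERBB2 were AKR1C3 (0.997), a prostaglandin and steroid reductase, TXNIP (0.988), an inhibitor of thioredoxin and glucose uptake, and its neighbour MIEN1 (0.985). The mean of AKR1C3 was 108 CPM in WT CDK9 cells, 153 CPM with the inhibitor and 88.4 CPM in Tyr19Phe CDK9 cells, and that of TXNIP was 169, 220 and 137 CPM. Those most like EGFR were CELSR2, an adhesion receptor of the cadherin family (0.994), NFAT5, the transcription factor of the response to osmotic stress (0.994), and ERBIN, a scaffold protein that binds ERBB2 (0.993). ERBIN had means of 348, 313 and 237 CPM in the same order. The 9 points are 3 groups of 3, so these values mostly describe the order of the group means.

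Among 48 other RTKs, of which 33 passed the filter, 6 were called lower and 0 higher with the inhibitor by edgeR and by DESeq2 (10 and 2 at an unadjusted edgeR p under 0.05). That is 18.2% lower beside 2.73% of all tested genes, and their median log2 fold change was -0.11 beside -0.0010 for all tested genes. This list and those of ligands, adaptors and attenuators below were chosen with earlier results of these data known. Their shares beside those of all genes are therefore a description and no test. AXL fell by 0.27 on the log2 scale, from 879 to 941 CPM in WT CDK9 cells to 717 to 786 CPM (edgeR adjusted p = 5.81e-06). FGFR2, a fibroblast growth factor receptor, fell by 1.2, from 8.83 to 9.97 CPM to 3.42 to 4.96 CPM (edgeR adjusted p = 4.3e-05). The stem cell factor receptor gene KIT fell by 0.56, the ephrin receptor genes EPHA4 by 0.61 and EPHA10 by 0.58, and FGFR4 by 0.31 (edgeR adjusted p = 0.0467). In each of the 6 the inhibitor libraries lay below all WT CDK9 libraries, and groups did not overlap in 19.6% of all tested genes. The call of EPHA10 was lost without WT replicate 1, WT replicate 3 or inhibitor replicate 3 (edgeR adjusted p between 0.0846 and 0.179), and that of FGFR4 without any 1 library other than Tyr19Phe replicate 3 (0.0512 to 0.208). The FGFR4 call was also lost without the filter, with only the compared groups and under 2 other scalings (upper-quartile and library size alone). Leaving out both libraries that stood apart ended it too (edgeR adjusted p between 0.0512 and 0.0764 over these settings). EPHA2 and PTK7, the most abundant after AXL, were not called, with log2 fold changes of -0.11 and 0.035.

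In Tyr19Phe CDK9 cells 6 of the 33 were called lower (18.2%, beside 10.4% of all tested genes) and 1 higher (3.03%, beside 7.61%), with a median of -0.053. RET, the receptor for GDNF family ligands, was the one that rose, from 4.0 to 5.86 CPM to 8.22 to 14.1 CPM (log2 fold change 1.21, edgeR adjusted p = 3.33e-05). EPHA10 fell by 1.13, to 9.36 to 10.1 CPM, and EPHB1 by 1.19, to 3.96 to 4.94 CPM. TYRO3 fell by 0.33 and EPHA6 by 0.67. AXL fell by 0.11 (edgeR adjusted p = 0.0405) and KIT by 0.29 (edgeR adjusted p = 0.0493). FGFR2 and EPHA4, lowered by the inhibitor, had log2 fold changes of -0.22 and 0.013 here and were higher than in the inhibitor group in the direct comparison (log2 fold changes 0.98 and 0.62, edgeR adjusted p = 0.000168 and 0.000233). The call of EPHA6 in Tyr19Phe CDK9 cells was lost without any 1 WT or Tyr19Phe library (edgeR adjusted p between 0.0547 and 0.151) and that of KIT without any 1 library other than Tyr19Phe replicate 1 (0.0523 to 0.296). The call of AXL was lost without WT replicate 1, WT replicate 2, inhibitor replicate 1, Tyr19Phe replicate 1 or Tyr19Phe replicate 3 (0.0544 to 0.193). Other settings also ended calls, 7 that of KIT (adjusted p between 0.0509 and 0.112, DESeq2 and 3 scalings among them), 6 that of AXL (0.0525 to 0.124, 2 scalings and 3 filters among them) and 2 that of EPHA6 (0.0911 and 0.0949). The 15 RTKs that failed the filter had low counts, among them ERBB4.

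Of 23 ligand genes of these receptors, 12 passed the filter. With the inhibitor 3 were called lower (25% of the 12, beside 2.73% of all tested genes) and 2 higher (16.7%, beside 1.82%). For Tyr19Phe CDK9, 3 were lower (25%, beside 10.4%) and 1 higher (8.33%, beside 7.61%, a share near that of all genes). HBEGF, an EGFR ligand, had 35.3 to 39.4 CPM in WT CDK9 cells, 23.3 to 27.1 CPM with the inhibitor and 29.6 to 31.1 CPM in Tyr19Phe CDK9 cells. It fell in both comparisons, by 0.57 (edgeR adjusted p = 0.000116) and 0.31 (edgeR adjusted p = 0.0152) on the log2 scale. The call in Tyr19Phe CDK9 cells was lost without WT replicate 1, WT replicate 3, Tyr19Phe replicate 2 or Tyr19Phe replicate 3 (edgeR adjusted p between 0.0524 and 0.0924). NRG1, the ligand of ERBB3, went in opposite directions, from 102 to 105 CPM to 80.4 to 93.7 CPM with the inhibitor (log2 fold change -0.28, edgeR adjusted p = 0.00319) and 118 to 126 CPM in Tyr19Phe CDK9 cells (0.24, edgeR adjusted p = 0.00382). The direct comparison of NRG1 gave 0.52 (edgeR adjusted p = 5.64e-08). TGFA, the other abundant EGFR ligand, was not called, with log2 fold changes of -0.11 and -0.072. HGF, the ligand of MET, had 0 counts in every library, which allows up to 0.102 to 0.165 CPM.

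The collagen ligands of DDR1 did not all move in the same direction, and differences between them were not tested. COL1A1 rose by 0.35 with the inhibitor (edgeR adjusted p = 0.0111) and fell by 1.46 in Tyr19Phe CDK9 cells (edgeR adjusted p = 1.04e-13), from 103 to 107 CPM in WT CDK9 cells to 115 to 149 CPM and 30.5 to 45.1 CPM. COL1A2 rose by 0.70 with the inhibitor (edgeR adjusted p = 0.021) and was not called in Tyr19Phe CDK9 cells, at -0.077. With the inhibitor the call of COL1A1 was lost without WT replicate 1, inhibitor replicate 2 or inhibitor replicate 3 (edgeR adjusted p between 0.0653 and 0.147) and under DESeq2 (adjusted p = 0.185). The call of COL1A2 was lost without WT replicate 1, WT replicate 3, inhibitor replicate 2 or inhibitor replicate 3 (edgeR adjusted p between 0.0668 and 0.128). It was also lost without both libraries that stood apart (edgeR adjusted p = 0.11). COL4A1, the most abundant ligand gene at a mean of 79.0 RPKM, fell by 0.18 and 0.11 (edgeR adjusted p = 0.000557 and 0.0168), and COL4A2 was not called. The Tyr19Phe call of COL4A1 was lost without WT replicate 2 or Tyr19Phe replicate 3 (edgeR adjusted p = 0.0975 and 0.167) and under 3 other settings (upper-quartile scaling, library size alone and both libraries that stood apart left out, edgeR adjusted p between 0.0533 and 0.184). COL1A1 is also 1 of 3 fibroblast markers, of which DCN had at most 3 and LUM at most 4 counts in any library. The summed level of the 3 was 103 to 107, 115 to 149 and 30.6 to 45.2 CPM in the 3 groups, nearly all of it COL1A1.

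Among 14 adaptor genes, all of which passed the filter, IRS1 and IRS2, which dock on INSR and IGF1R, fell with the inhibitor. No other adaptor was called by edgeR or DESeq2, and 2 were higher at an unadjusted edgeR p under 0.05. The 2 called genes are 14.3% of the list, beside 2.73% of all tested genes lower. For Tyr19Phe CDK9, 2 were called lower (14.3%, beside 10.4%) and 1 higher (7.14%, beside 7.61%), shares near those of all genes. IRS1 had 36.4 to 40.5 CPM in WT CDK9 cells and 27.9 to 30.3 CPM with the inhibitor (log2 fold change -0.40, edgeR adjusted p = 0.00369). IRS2 had 78.0 to 88.7 and 56.0 to 60.9 CPM (log2 fold change -0.51, edgeR adjusted p = 4.24e-06). In Tyr19Phe CDK9 cells IRS1 rose by 0.27 (edgeR adjusted p = 0.0241), IRS2 had a log2 fold change of 0.13 (edgeR adjusted p = 0.195), and PTPN11, the phosphatase SHP2, fell by 0.15 beside GRB7. The call of IRS1 was lost without WT replicate 1, WT replicate 2 or Tyr19Phe replicate 1 (edgeR adjusted p between 0.0704 and 0.118), and without WT replicate 2 edgeR called 0 adaptors. Both IRS genes were higher than in the inhibitor group in the direct comparison, by 0.66 and 0.64 (edgeR adjusted p = 4.47e-07 and 1.25e-08). GRB2 and SHC1, the most abundant adaptors per length after PTPN11, were not called in either comparison with WT CDK9 cells.

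Of 15 attenuators, 14 passed the filter. With the inhibitor 1 was called lower (7.14%, beside 2.73% of all tested genes) and 2 higher (14.3%, beside 1.82%), and in Tyr19Phe CDK9 cells 2 were lower (14.3%, beside 10.4%) and 2 higher (14.3%, beside 7.61%). The receptor phosphatase gene PTPRJ rose with the inhibitor by 0.28 (edgeR adjusted p = 0.000464) and the ubiquitin ligase gene CBLB by 0.68 (edgeR adjusted p = 0.0012). LRIG1, which promotes the loss of ERBB receptors, fell by 0.44 (edgeR adjusted p = 0.0302). The call of LRIG1 was lost without any 1 WT or inhibitor library (edgeR adjusted p between 0.0667 and 0.121). It was also lost without the filter and without both libraries that stood apart (edgeR adjusted p between 0.0578 and 0.0597). In Tyr19Phe CDK9 cells CBLB rose by 0.67, from 10.6 to 11.4 CPM to 15 to 19.6 CPM (edgeR adjusted p = 0.000382). GRB10, an adaptor that restrains INSR and IGF1R, rose by 0.97, from 9.85 to 13.0 CPM to 21.6 to 23.0 CPM (edgeR adjusted p = 1.66e-06). PTPRK, a receptor phosphatase known to act on EGFR, fell by 0.52 (edgeR adjusted p = 3.8e-09) and CBL by 0.24 (edgeR adjusted p = 0.00175). The most abundant attenuators PTPRF, PTPN1 and ERRFI1 were not called in these comparisons, with log2 fold changes from -0.18 to 0.079. ERRFI1 was near the threshold in Tyr19Phe CDK9 cells (-0.18, edgeR adjusted p = 0.055). In the direct comparison 4 attenuators were called lower (28.6%, beside 11.1% of all tested genes) and 1 higher (7.14%, beside 9.57%). GRB10 was higher (log2 fold change 1.03), and PTPRK (-0.54), PTPRJ (-0.36), CBL (-0.22) and ERRFI1 (-0.26, edgeR adjusted p = 0.00392) were lower. The call of ERRFI1 was lost without inhibitor replicate 1 (edgeR adjusted p = 0.0847). That of CBL was lost without both libraries that stood apart (edgeR adjusted p = 0.226). Medians of the attenuators were 0.033 and -0.034, those of the adaptors -0.00060 and -0.0084, and those of the ligands -0.093 and -0.095.

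**Figure D5:**
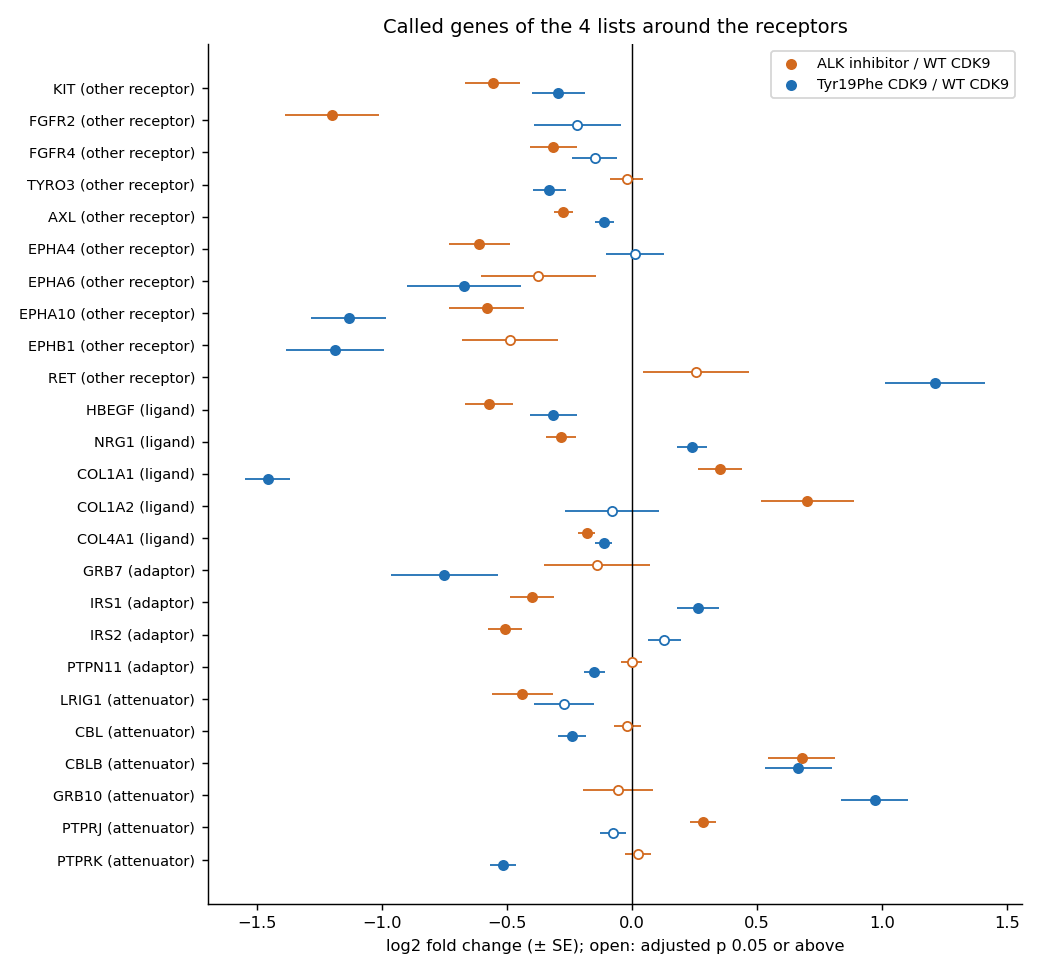
Log2 fold change (± SE) with the ALK inhibitor and in Tyr19Phe CDK9 cells, each against WT CDK9 cells, of the 25 genes of the 4 lists called in either. Filled points have an adjusted p under 0.05. NRG1, IRS1 and COL1A1 are filled on opposite sides of 0, and CBLB is filled at 0.68 and 0.67.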

How the data were processed

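The authors sequenced total RNA of SKOV3 cells and deposited counts of reads per gene and library, without normalization. The submitters' processing notes name CASAVA, HISAT2 2.0.5 and featureCounts 1.5.0-p3, and reads were mapped to hg38. Annotation release and strand setting are not given in the sources used here. Groups and replicate numbers came from the deposited labels, and nothing says that replicates were separate cultures, so p-values measure the spread between these libraries, which may be technical. Gene length is as listed in the deposited table.

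Counts were analysed with edgeR 4.0.16 in R 4.3.3 (filterByExpr, minimum count 10, minimum total 15, TMM factors 0.986 to 1.01), with 1 mean per group over all 9 libraries and 6 residual degrees of freedom, and Benjamini-Hochberg adjustment over 16350 genes. Standard errors and 95% intervals came from this fit. The code was tested on simulated data. Alternatives were DESeq2 1.42.0, 3 scalings, 3 filters, a replicate block, only the compared groups, an adjusted p under 0.01, each library left out, and, added after seeing the data, both libraries that stood apart left out and the genes beside ERBB2.

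The receptors and the lists of other receptors, ligands, adaptors and attenuators were chosen with earlier results of these data known. From each list, up to 6 called genes by smallest adjusted p and the 3 with the highest RPKM were named for each comparison with WT CDK9 cells. CPM was scaled by TMM, and log2 CPM used a prior count of 2. Ligands at or near 0, the genes beside ERBB2, ERBB4 and called genes beyond the first 6 were named after their values were seen. Promoter windows were searched for 9 of the 10 receptors, and the remaining one is not reported here.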

Additional observations from a re-analysis of the deposited data

How the results depend on the processing

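The receptors called were 2 with the ALK inhibitor, 4 in Tyr19Phe CDK9 cells and 3 in the direct comparison. At an adjusted p under 0.01 they were 1, 3 and 2, since the threshold itself is stricter. With single libraries left out they ranged from 1 to 2, from 3 to 5 and from 2 to 4, and groups then had as few as 2 libraries. ERBB2 kept its direction and its call in all comparisons, and EGFR in the Tyr19Phe and direct comparisons, under each of 19 alternatives. Directions turned only among values that were not called. With single libraries left out, the log2 fold change ranged from -0.0078 to 0.040 for MET, -0.025 to 0.081 for IGF1R and -0.38 to 0.062 for INSR with the inhibitor. It ranged from -0.022 to 0.13 for IGF1R in Tyr19Phe CDK9 cells, and from -0.068 to 0.082 for IGF1R and -0.033 to 0.055 for DDR1 in the direct comparison. Without both libraries that stood apart, an alternative chosen after seeing the data, INSR was at 0.062 with the inhibitor and IGF1R at 0.047 in the direct comparison. The cause was not tested.

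The lists were put through the same alternatives after seeing the data. In the direct comparison 4 of the 33 other receptors were called lower (12.1%, beside 11.1% of all tested genes) and 8 higher (24.2%, beside 9.57%). Of the 14 adaptors, 3 were lower (21.4%) and 2 higher (14.3%) in that comparison. At an adjusted p under 0.01, 3 ligands were called with the inhibitor in place of 5, 4 other receptors, 2 ligands and 0 adaptors in Tyr19Phe CDK9 cells in place of 7, 4 and 3, and 2 adaptors in the direct comparison in place of 5. Without both libraries that stood apart, 4 other receptors were called in Tyr19Phe CDK9 cells and 3 adaptors in the direct comparison, where DESeq2 also called 3. Without the filter, 4 other receptors were called in Tyr19Phe CDK9 cells. Calls over all tested genes also fell at an adjusted p under 0.01, from 744 to 427 with the inhibitor. They fell from 2940 to 1850 in Tyr19Phe CDK9 cells and from 3387 to 2088 in the direct comparison. All genes called ranged from 491 to 738, from 2180 to 3038 and from 2622 to 3426 with single libraries left out. With single libraries left out, the called ligands ranged from 3 to 5 with the inhibitor and from 2 to 4 in Tyr19Phe CDK9 cells, the called other receptors from 4 to 6 in Tyr19Phe CDK9 cells and from 7 to 12 in the direct comparison, and the called adaptors from 0 to 3 and from 3 to 5.

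Between libraries that share a replicate number, deviations from the group means correlated at -0.012 to 0.026. Between libraries of other numbers they correlated at -0.034 to 0.020. No pairing by number was seen, and such values cannot exclude a weak one. With a replicate block the receptors called were 2, 4 and 4, the added one being MET (-0.11, edgeR adjusted p = 0.0484), which DESeq2 also called (adjusted p = 0.0489). Scaling by library size alone moved the split of all genes called with the inhibitor from 447 lower and 297 higher to 344 and 406, and the receptors called were the same. Depth limits ALK, LTK and ERBB3, which had at most 62 counts in a library.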
